A study of Mus musculus with 3 samples.

Results

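The 42 genes described here form a cell cycle module of 25 mitotic genes, 16 S-phase genes and Ccnd1. They were taken by name from count tables of 36530 features, and all 42 were found. Messenger RNA had been counted in single cells of 3 mouse melanomas. The tumors were 1 untreated melanoma, 1 that had regressed on vemurafenib and 1 that had progressed on it, an inhibitor of the mutant Braf kinase. All 3 came from genetically engineered mice on a C57BL/6 background, which carried a Cre-activated mutant Braf allele and the tamoxifen-inducible Tyr.CreER. Tyr drives Cre in melanocytes, so the fibroblasts, immune cells and vessels of each tumor keep the host genotype. The methods add that some mice also carried a Cre-activated tdTomato reporter.

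A cell that prepares to divide passes from G1 through S phase, in which DNA is copied, and G2 into mitosis, in which the chromosomes are separated. Cyclin D1, the product of Ccnd1, partners the kinases Cdk4 and Cdk6 early in G1 and is under the control of MAP kinase signaling, the pathway that Braf feeds. Genes for DNA replication are transcribed by E2F factors at the passage from G1 to S phase. Genes for mitosis follow in G2, largely under the DREAM and MuvB complexes with B-Myb and FoxM1. In a tumor, these messages can come from tumor cells and equally from fibroblasts, keratinocytes, endothelium and immune cells.

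Motif letters were counted in the 250 bases before the start of each gene, on both strands, in RefSeq promoters of build GRCm38.p6. The CHR element bound by MuvB was searched as TTTGAA, the NF-Y box as CCAAT, and the E2F site as TTTCCCGC, TTTCGCGC, TTTGCCGC or TTTGGCGC. Of the 25 mitotic genes 22 had a promoter entry. CCAAT letters stood in 19 of these 22 (86.4%, against 34.5% of 27025 promoters), CHR letters in 7 (31.8%, against 16.3%) and E2F letters in 1 (4.55%, against 1.91%). Of the 16 S-phase genes 13 had an entry, with CCAAT in 9 (69.2%), CHR in 1 (7.69%) and E2F letters in 4 (30.8%). A match describes these letters and is not evidence of binding. The promoters of the 2 leading mitotic genes and the 2 leading S-phase genes by UMIs in the Dividing cluster are printed, followed by the 2 S-phase genes with E2F letters that had most UMIs there. Capitals mark CHR, CCAAT and E2F letters on either strand in the last 180 bases before the gene.
Top2a (chr11:99024200-99024379, minus strand): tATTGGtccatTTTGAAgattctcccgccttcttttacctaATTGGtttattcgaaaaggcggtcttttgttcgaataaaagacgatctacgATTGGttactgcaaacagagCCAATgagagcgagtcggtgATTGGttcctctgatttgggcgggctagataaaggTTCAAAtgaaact
Ube2c (chr2:164769749-164769928, plus strand): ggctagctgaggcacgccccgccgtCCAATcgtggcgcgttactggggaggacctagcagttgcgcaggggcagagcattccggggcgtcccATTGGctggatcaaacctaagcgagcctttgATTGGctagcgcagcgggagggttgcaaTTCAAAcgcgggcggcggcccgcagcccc
Rrm2 (chr12:24708074-24708253, plus strand): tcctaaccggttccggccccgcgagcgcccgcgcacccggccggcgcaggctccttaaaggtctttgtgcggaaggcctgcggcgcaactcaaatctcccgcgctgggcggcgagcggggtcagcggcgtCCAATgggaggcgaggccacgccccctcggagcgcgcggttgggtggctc
Tyms (chr5:30073646-30073825, minus strand): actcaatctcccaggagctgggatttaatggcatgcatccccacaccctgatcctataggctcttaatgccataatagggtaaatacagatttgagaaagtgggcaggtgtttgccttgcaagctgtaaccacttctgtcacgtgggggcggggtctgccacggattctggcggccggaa
Mcm6 (chr1:128359706-128359885, minus strand): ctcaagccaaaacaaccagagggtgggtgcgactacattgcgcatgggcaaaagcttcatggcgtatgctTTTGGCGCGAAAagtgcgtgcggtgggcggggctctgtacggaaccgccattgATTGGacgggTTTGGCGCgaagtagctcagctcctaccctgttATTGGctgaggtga
Mcm5 (chr8:75109288-75109467, plus strand): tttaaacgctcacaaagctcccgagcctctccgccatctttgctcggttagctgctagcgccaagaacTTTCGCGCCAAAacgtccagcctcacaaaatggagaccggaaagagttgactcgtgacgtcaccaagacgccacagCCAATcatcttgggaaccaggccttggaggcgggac
Top2a and Ube2c, which encode the topoisomerase that untangles chromosomes and the ubiquitin-conjugating enzyme of the anaphase-promoting complex, each held several CCAAT boxes with a CHR close to the start. Mcm6 and Mcm5, subunits of the replicative helicase, held E2F letters.

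The tables held 4095 cells with 22202192 UMIs (unique molecular identifiers, counted molecules) from the untreated tumor, 3726 cells with 12413268 from the regressed tumor and 4849 cells with 26948940 from the progressed tumor. Median depth was 4496, 2658 and 4566 UMIs per cell. The authors' table put each cell into 1 of 25 named clusters. These were read here as tumor cells (Tumor1 and Tumor2), stroma (Stroma1 to Stroma10), immune cells (7 clusters), a Dividing cluster, and others. Levels are summed UMIs of a group of cells per 1000000 of its UMIs (CPM), not scaled by gene length. Every interval is a 95% interval for counting error only. With 1 tumor per condition no difference between treatments could be tested, so each comparison is between these 3 tumors.

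Over all cells, the mitotic genes summed to 273 CPM (interval 267 to 280) in the untreated tumor, 393 CPM (382 to 404) in the regressed tumor and 436 CPM (428 to 444) in the progressed tumor. The S-phase genes stood at 179, 225 and 259 CPM. Both lists were lowest in the untreated tumor. Ccnd1 was at 114, 116 and 206 CPM, and the progressed tumor stood apart. The molecules were spread very differently over the cells. The Dividing cluster, 265 cells in all, held 61.2% of mitotic UMIs, 24.0% of S-phase UMIs and 6.79% of Ccnd1 UMIs. By gene, the Dividing share ran from 43.1% for Kif23, a motor protein of the division furrow, to 79.3% for Ccnb1, the cyclin of mitotic entry. Among S-phase genes it ran from 11.7% for Cdc6, which loads the helicase on replication origins, to 55.6% for Rrm2, the regulated subunit of ribonucleotide reductase. The authors had drawn and named that cluster from expression that included such genes, so its excess over other cells is a description.

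**Figure D1:**
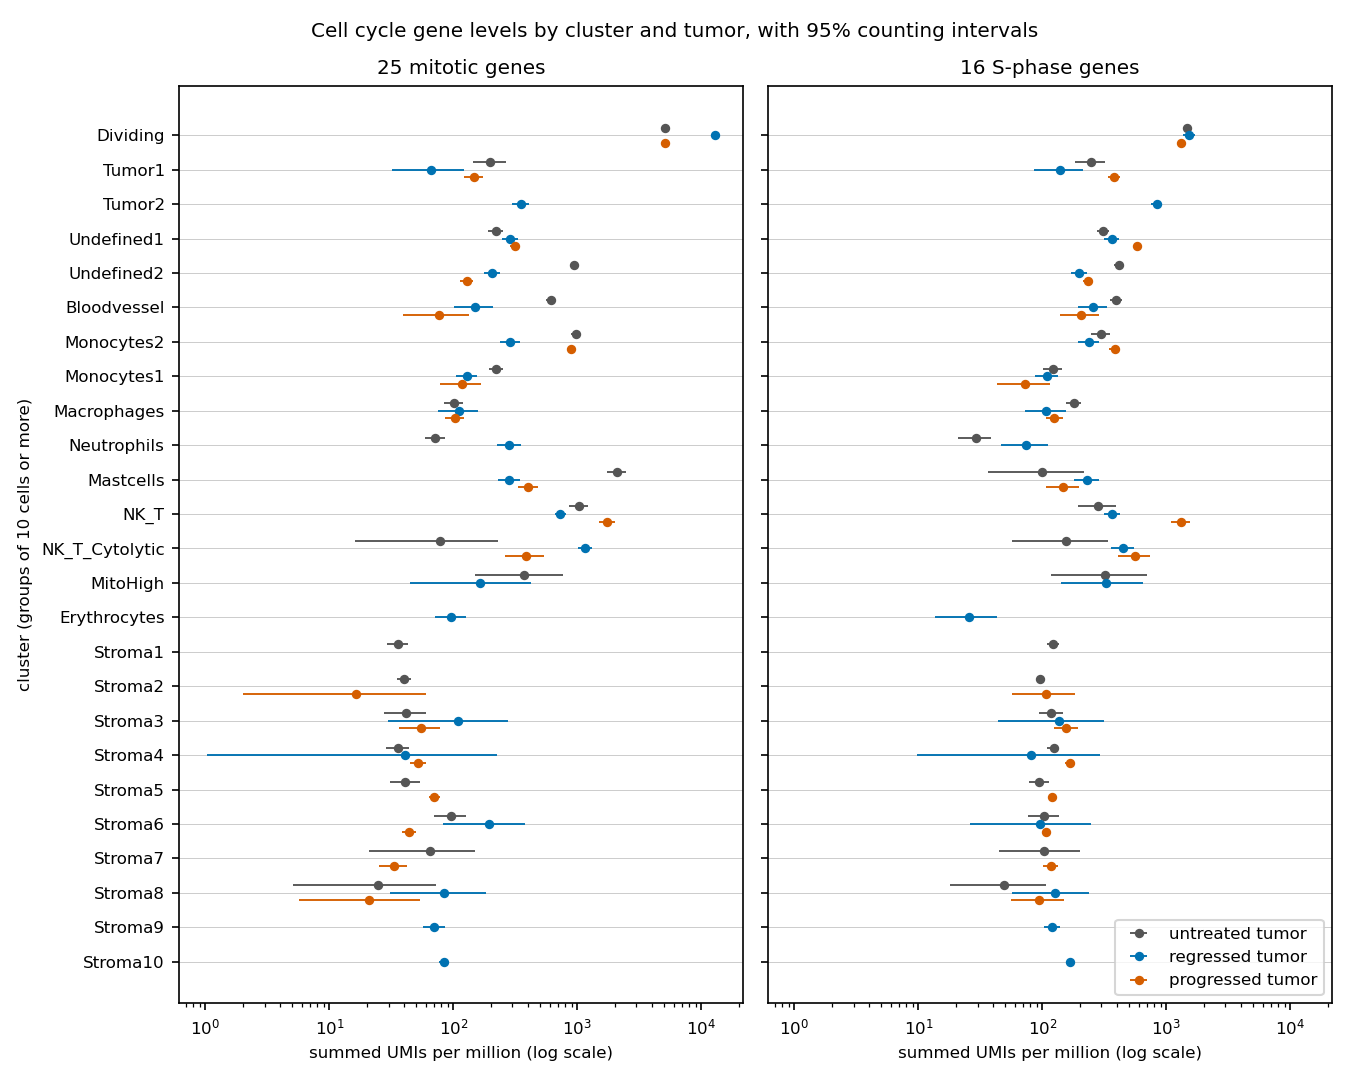
Summed level of the 25 mitotic genes (left) and the 16 S-phase genes (right) in CPM on a log axis, for each cluster (rows) and tumor (colors) with 10 cells or more. Points are levels and bars 95% counting intervals. Dividing stood highest for both lists, and the stroma clusters lay between 16.5 and 193 CPM for mitotic genes.

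The Dividing cluster took 43 of 4095 cells (1.05%, interval 0.761 to 1.41) of the untreated tumor, 75 of 3726 (2.01%, 1.59 to 2.52) of the regressed tumor and 147 of 4849 (3.03%, 2.57 to 3.55) of the progressed tumor. The 3 intervals do not overlap. In the regressed tumor 42 of the 75 cells had fewer than 1000 UMIs. Among cells with 1000 UMIs or more its share was 1.09%, beside 1.07% in the untreated and 3.07% in the progressed tumor. Its excess over the untreated tumor rested on the shallow cells. Median depth of Dividing cells was 11361, 889 and 11402 UMIs.

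Regressed Dividing cells carried more mitotic message per molecule counted. Mitotic genes summed to 5113 CPM (4920 to 5311) in the Dividing cells of the untreated tumor, 12994 CPM (12506 to 13496) after regression and 5077 CPM (4970 to 5186) after progression. S-phase genes summed to 1476, 1516 and 1319 CPM, and the regressed value differed by depth. It was 2153 CPM (1639 to 2777) in cells under 1000 UMIs, 2017 CPM (1619 to 2482) from 1000 to 5000 UMIs and 1222 CPM (1042 to 1424) above, beside 1476 CPM (1373 to 1584) in untreated cells, all of which had 5000 UMIs or more. The ratio of mitotic to S-phase UMIs was 3.46 (3.20 to 3.76), 8.57 (7.62 to 9.67) and 3.85 (3.67 to 4.04). The mitotic level was similar at each depth of the regressed tumor, at 13649 CPM in the 42 cells under 1000 UMIs, 12847 CPM in 23 cells of 1000 to 5000 UMIs and 12909 CPM in 10 cells above that, while 128 progressed cells above 5000 UMIs had 5143 CPM. Among cells with 10 or more UMIs of both lists together, a limit chosen after the data were seen, mitotic UMIs made up a median of 83.4% in 40 untreated cells, 90% in 55 regressed cells and 74.5% in 127 progressed cells. Cells in which mitotic UMIs were 50% or less, the S-phase-rich end, numbered 12 of 40, 2 of 55 and 41 of 127. In the progressed tumor 13 Dividing cells had no mitotic UMI at all.

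**Figure D2:**
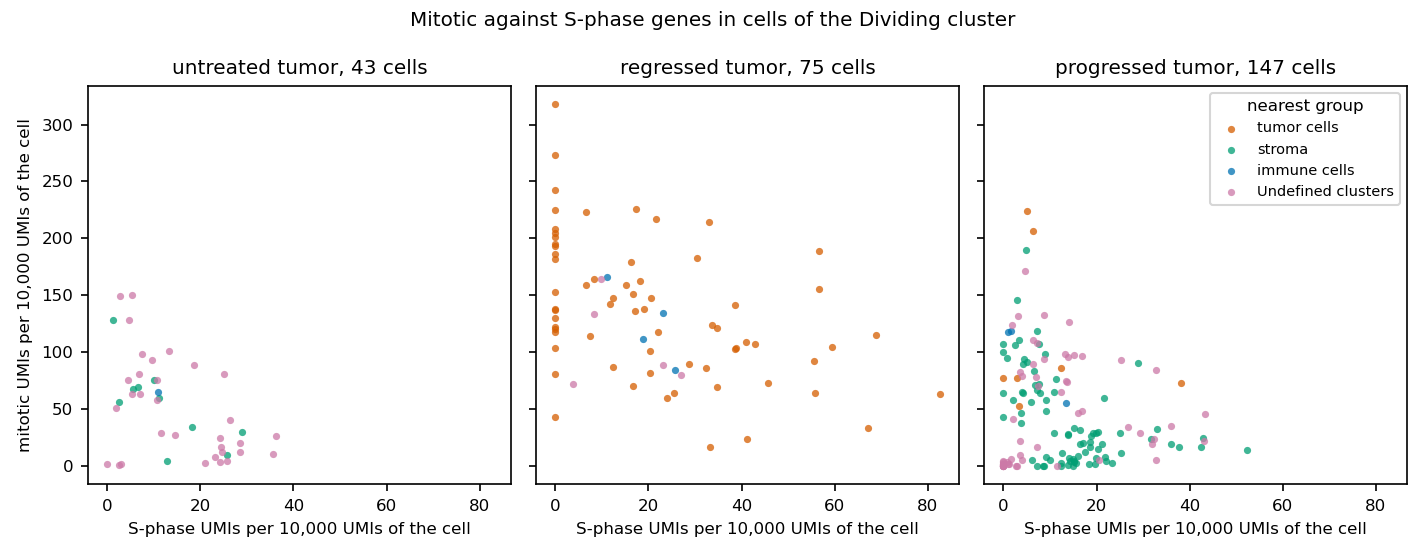
Mitotic against S-phase UMIs per 10000 UMIs for each of the 265 cells of the Dividing cluster, in 1 panel per tumor. Colors give the group of cells whose profile was nearest. The untreated and progressed panels hold a cloud of cells with few mitotic UMIs, which is thin in the regressed panel, where nearly all points are cells nearest to tumor cells.

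In the same order, Top2a had 477, 1929 and 564 CPM in Dividing cells. Ube2c had 446, 1239 and 616 CPM. Cenpf, a kinetochore protein, had 288, 982 and 246 CPM. In all 3 genes the regressed cells were highest and the other tumors were close. Birc5, the survivin subunit of the chromosomal passenger complex, had 425, 603 and 418 CPM, and Cenpa, the centromeric histone, 500, 578 and 383 CPM, a much smaller excess. Mki67, the source of the Ki-67 proliferation antigen, had 222, 1084 and 241 CPM, the largest ratio of these 6 genes. Among S-phase genes Rrm2 stood at 234, 277 and 173 CPM, Tyms (thymidylate synthase) at 133, 219 and 146 CPM and Rrm1 (the large reductase subunit) at 170, 287 and 126 CPM. Mcm6 was nearly level at 118, 136 and 134 CPM. Mcm5 was lowest in the regressed cells, at 126, 63.2 and 114 CPM, as was Mcm7 at 110, 82.6 and 85.4 CPM.

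A gene was called higher or lower where its CPM differed 2-fold or more with a counting interval on 1 side of no change, among genes with at least 20 UMIs in the pair of tumors. Of the 25 mitotic genes, all with 20 UMIs, 19 were called higher in regressed than untreated Dividing cells and none lower. Among all 5947 features 11.6% were called higher. The median log2 ratio was 1.33 over the list and 0.05 over all features. Of 15 S-phase genes with 20 UMIs, 1 was called higher, Uhrf1, which maintains DNA methylation, and 2 lower, against 6.81% of all features. The lower pair were Cdt1, which licenses origins (log2 ratio -2.29, interval -4.64 to -0.63, from 3 and 37 UMIs, and of the opposite sign at equal depth), and Gins2, of the active helicase (-2.01, -3.52 to -0.81). The 6 highest log2 ratios were those of Mki67 (log2 ratio 2.29, 1.96 to 2.62), Hmmr (2.22, 1.64 to 2.81), Ccnb1 (2.02, 1.47 to 2.58), Top2a (2.02, 1.78 to 2.25), Kif11 (1.96, 1.26 to 2.69) and Nusap1 (1.95, 1.58 to 2.33). Hmmr, Kif11 and Nusap1 act on the mitotic spindle. From regressed to progressed Dividing cells 20 of 25 mitotic genes were called lower and none higher, where 9.89% of 9531 features were called lower and the median log2 ratio was -1.42 for the list. Mki67 again led (-2.17, -2.41 to -1.93). Among the S-phase genes 2 were called lower and 1 higher, where 6.81% of features were called higher. A second list of 29 mitotic genes outside the module had 21 called higher and none lower from untreated to regressed, and 20 called lower and none higher from regressed to progressed. Of 30 further S-phase genes, 24 of them with 20 UMIs, none was called higher and 4 were called lower in the first comparison. The authors drew the Dividing cluster from expression that included such genes, so calls between its cells in different tumors are also descriptions. Among the regressed Dividing cells 42 of 75 had fewer than 1000 UMIs. How depth and mitotic message decided which cells entered the cluster was not tested.

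The Dividing cluster mixed cells of several kinds, and the mixture changed with the tumor. Each of its cells was given to the group whose summed profile, without cell cycle genes, made its counts most likely. The same rule returned 12224 of 12335 other cells (99.1%) to their own group, and 621 of 632 regressed cells under 1000 UMIs (98.3%). Of the latter, 3 stroma cells and 1 immune cell were given to tumor cells. In the untreated tumor 32 of 43 Dividing cells lay nearest to the Undefined clusters, 10 to stroma and 1 to immune cells, with 0 nearest to tumor cells. In the regressed tumor 66 of 75 lay nearest to tumor cells, 5 to the Undefined clusters, 4 to immune cells and 0 to stroma. In the progressed tumor 81 of 147 lay nearest to stroma, 56 to the Undefined clusters, 7 to tumor cells and 3 to immune cells. The result was the same for all 265 cells when the marker genes were also left out.

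Marker genes went with these assignments. The transgene features (tdTomato and tWPRE) that mark tumor cells reached 1337 CPM in the 66 regressed Dividing cells nearest to tumor cells, with a UMI in 38 of them. They reached 1359 CPM in regressed tumor cells outside the cluster and 36.7 CPM in regressed stroma. All 7 such progressed cells had a transgene UMI, at 3711 CPM. Progressed Dividing cells nearest to stroma had 33.7 CPM of transgene and 44121 CPM of the 8 stroma markers. The authors had left the Undefined clusters without a cell type. Dividing cells nearest to them had the 5 epidermal markers at 8665 CPM in the untreated, 23910 CPM in the regressed and 8254 CPM in the progressed tumor. The Undefined clusters themselves had 26644, 29251 and 25899 CPM, so the untreated and progressed Dividing cells stood well below them.

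**Figure D3:**
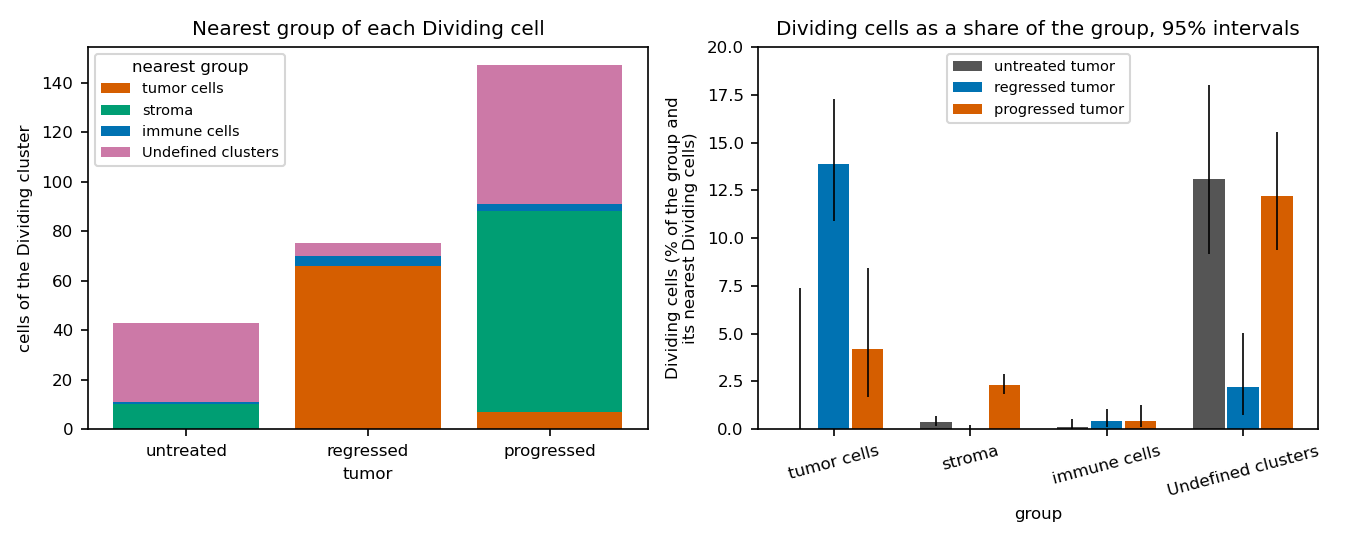
Left, number of Dividing cells in each tumor by nearest group. Right, Dividing cells as a percentage of the group with its nearest Dividing cells added, with bars for 95% intervals. Tumor cells stood highest in the regressed tumor at 13.9%, and the Undefined clusters in the untreated and progressed tumors at 13.1% and 12.2%.

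Set against the group they lay nearest to, Dividing cells nearest to tumor cells had their highest share in the regressed tumor. They were 66 of 476 such cells and tumor cells together (13.9%, interval 10.9 to 17.3) there and 7 of 167 (4.19%, 1.70 to 8.45) in the progressed tumor. The untreated tumor had 0 of 48 (interval 0 to 7.40%). Those nearest to stroma were fewest in the regressed tumor, at 10 of 2638 (0.379%, 0.182 to 0.696), 0 of 1918 (interval 0 to 0.192%) and 81 of 3503 (2.31%, 1.84 to 2.87) for untreated, regressed and progressed. The Undefined clusters had 13.1%, 2.19% and 12.2%, lowest in the regressed tumor. The level of mitotic message also differed between these kinds of cells. It was 12542 CPM in the 7 progressed tumor-like cells and 13533 CPM in the 66 regressed ones, against 4261 CPM in the 81 progressed stroma-like cells. In the regressed tumor the 5 Undefined-like and 4 immune-like cells were high too, at 12556 and 13061 CPM. The ratio of mitotic to S-phase UMIs in tumor-like cells was 6.90 (5.82 to 8.23) in the regressed and 9.66 (7.54 to 12.5) in the progressed tumor. For immune-like cells it was 6.00 in 1 untreated, 6.94 in 4 regressed and 14.8 in 3 progressed cells. Undefined-like cells had 3.22, 11.7 and 4.29, highest in the regressed tumor.

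Outside the Dividing cluster, tumor cells kept appreciable S-phase message. Summed S-phase genes in tumor cells were at 341 CPM (274 to 419), 661 CPM (597 to 730) and 373 CPM (333 to 416) for untreated, regressed and progressed, and mitotic genes at 201, 279 and 144 CPM. Of 11 S-phase genes with 20 UMIs, 4 were called higher in regressed than in untreated tumor cells and none lower, while 11.5% of all features were called higher and 5.62% lower. The median log2 ratio was 1.10 over these genes and 0.11 over all features. All 4 encode subunits of the replicative helicase. In that order of tumors Mcm3 had 18.9, 99.0 and 27.4 CPM (log2 ratio of regressed to untreated 2.39, 1.08 to 4.06), and Mcm6 had 45.5, 121 and 41.7 CPM (1.41, 0.52 to 2.43). Mcm4 (1.58) and Mcm2 (1.54) followed. Of the mitotic genes 1, Top2a, reached 20 UMIs in that pair, and it was not called (-0.24, -1.30 to 0.90). From regressed to progressed tumor cells, 4 of 12 S-phase genes and 3 of 8 mitotic genes were called lower, where 10.2% of features were, and 1 was called higher, Cenpa, where 4.42% were. Top2a had the lowest ratio (38.6 to 5.95 CPM, log2 ratio -2.70, -4.45 to -1.27), with Mcm3 (-1.85), Cdc20, the activator of the anaphase-promoting complex (-1.58), Mcm6 (-1.54), Cenpf (-1.26) and Gins2 (-1.25).

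These tumor cell values depended on which cluster supplied the cells. The regressed tumor had 349 cells of Tumor2 and 61 of Tumor1, while the untreated and progressed tumors each had 4 of Tumor2 beside 44 and 156 of Tumor1. Tumor2 of the regressed tumor, with a median of 768 UMIs, had 838 CPM (755 to 928) of S-phase and 351 CPM (298 to 410) of mitotic message. In Tumor1 alone, S-phase genes stood at 245 CPM (184 to 319), 139 CPM (86.1 to 213) and 377 CPM (336 to 421), and mitotic genes at 199 CPM (145 to 268), 66.2 CPM (31.7 to 122) and 146 CPM (121 to 175). The regressed tumor was thus lowest within Tumor1 for both lists, the reverse of the pooled order. The Tumor1 values of the regressed tumor rest on 10 mitotic and 21 S-phase UMIs.

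Outside the Dividing cluster Ccnd1 stood highest in tumor cells. It had 815, 683 and 1135 CPM in tumor cells, 113, 80.3 and 185 CPM in stroma and 48.2, 101 and 170 CPM in immune cells, listed as untreated, regressed, progressed. In Tumor1 alone it had 861, 602 and 1148 CPM, lowest in the regressed tumor, with a log2 ratio to the untreated tumor of -0.52 (-0.89 to -0.15) and a log2 ratio of progressed to regressed of 0.93 (0.62 to 1.26). Neither tumor cell difference reached 2-fold. Among other clusters, in groups of 10 cells or more, Stroma5 had most Ccnd1, at 464 CPM in the untreated and 392 CPM in the progressed tumor. Bloodvessel of the progressed tumor followed at 331 CPM (247 to 434). The whole Dividing cluster had 216, 253 and 287 CPM, which averages over its mixture of cells. Its cells nearest to tumor cells had 573 CPM in the regressed tumor (66 cells) and 1503 CPM in the progressed tumor (7 cells). Over the 60 cluster and tumor groups of 10 cells or more, mitotic and S-phase sums had a Spearman correlation of 0.71, and Ccnd1 had 0.33 with S-phase and 0.09 with mitotic sums. These are descriptions over groups that share libraries.

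**Figure D4:**
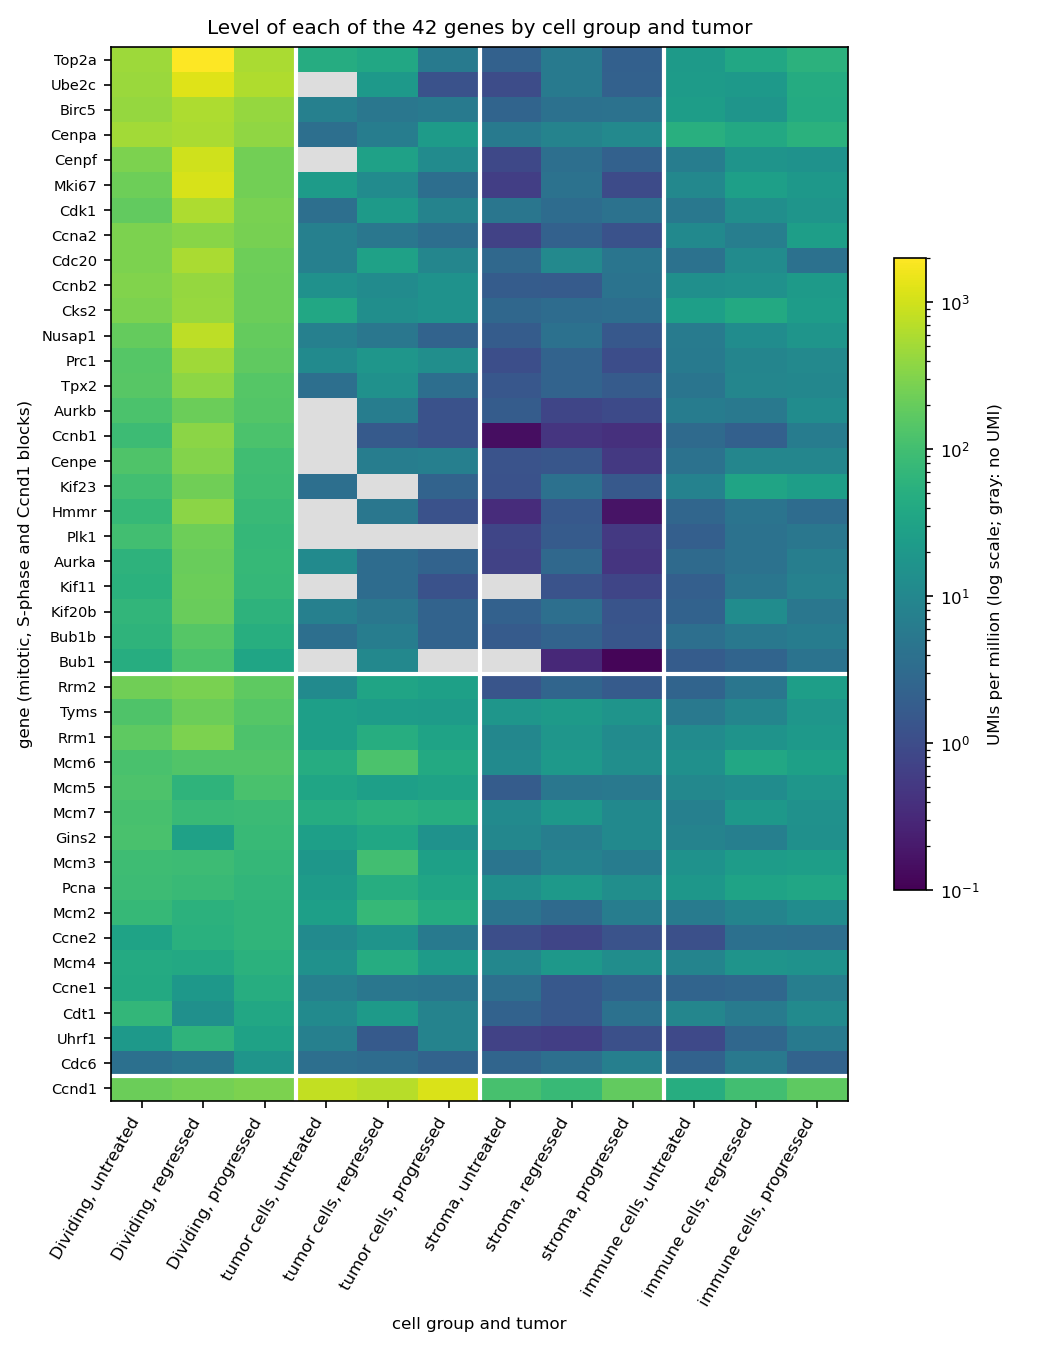
Level of each of the 42 genes (rows, in mitotic, S-phase and Ccnd1 blocks) in 4 groups of cells in each tumor (columns), in CPM on a log color scale, with gray where no UMI was counted. Mitotic genes are bright in Dividing alone, S-phase genes are spread over all groups, and Ccnd1 is brightest in tumor cells.

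In the stroma clusters, which leave out the Dividing cells, the module was low, and S-phase outweighed mitotic message. The 81 progressed Dividing cells nearest to stroma held 3667 mitotic and 1216 S-phase UMIs, beside 926 and 2219 in all progressed stroma clusters. For the 10 untreated ones it was 595 and 136, beside 568 and 1510. The order below thus holds for the clusters as the authors drew them. Over the 21 stroma cluster and tumor groups of 10 cells or more, mitotic sums ran from 16.5 to 193 CPM (median 43.9) and S-phase sums from 49.2 to 166 CPM (median 116). In 14 of the 21 the S-phase sum was above the mitotic sum beyond its counting interval, and in 0 was the mitotic sum above. Pooled stroma had mitotic sums of 40.3 CPM (37.1 to 43.8), 81.9 CPM (75.0 to 89.2) and 52.6 CPM (49.3 to 56.1), highest in the regressed tumor. S-phase sums were 107, 155 and 126 CPM in the same order. The stroma of the tumors came from different clusters, mainly Stroma2, Stroma4 and Stroma1 in the untreated, Stroma10 and Stroma9 in the regressed, and Stroma6, Stroma4 and Stroma5 in the progressed tumor. Markers of other cells were also counted in stroma, and most stood highest in the regressed tumor. The 5 red blood markers summed to 37.8, 1593 and 0.625 CPM, the 5 mast cell markers to 15.8, 531 and 58.2 CPM, the 5 NK and T markers to 3.05, 80.5 and 3.64 CPM and the 5 epidermal markers to 185, 986 and 263 CPM. The 5 neutrophil markers were highest in the untreated stroma, at 722, 449 and 5.06 CPM, as were the 5 vessel markers at 136, 93.5 and 68.8 CPM. The transgene features that mark tumor cells were nearly level, at 40.3, 36.7 and 42.4 CPM, lowest in the regressed stroma. The part of these messages of other cells in the stromal differences was not tested.

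Of 21 mitotic genes with 20 UMIs, 9 were called higher in regressed than in untreated stroma and none lower, where 13.2% of all features were called higher and 6.38% lower. Their median log2 ratio was 1.13, against 0.14 over all features. Mki67 had 0.639, 4.20 and 0.966 CPM (log2 ratio of regressed to untreated 2.72, 1.59 to 3.99). Ube2c had 0.995, 5.91 and 2.16 CPM (2.57), Cenpf 0.852, 3.74 and 2.16 CPM (2.13), and Aurka, the spindle pole kinase, 0.710, 2.80 and 0.455 CPM (1.98). Cdc20 (1.88) and Kif23 (1.74) came next. Each of these 6 was highest in the regressed stroma, as were most of the marker sums of other cells, and most rested on few molecules, such as 27 UMIs of Mki67 in 1918 cells. Mcm5 was the 1 S-phase gene called higher (1.53, 0.74 to 2.34) and Ccne1, the cyclin of S-phase entry, the 1 called lower (-1.27, -2.41 to -0.28). From regressed to progressed stroma 10 mitotic genes were called lower, where 15.4% of features were, and 4 members higher, where 4.29% were. Aurka (-2.62) and Mki67 (-2.12) had the lowest log2 ratios, before Plk1, the kinase of mitotic entry (-1.74), and Kif20b (-1.51). Neither Plk1 nor Kif20b kept its direction at equal depth. The 4 higher members were Ccnb2 (1.32, 0.40 to 2.38), Mcm2 (1.12, 0.43 to 1.88), Cdt1 (1.39, 0.43 to 2.52) and Ccnd1 (1.21, 1.07 to 1.34).

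Adding Dividing cells to the group they lay nearest changed the stromal order, since the regressed stroma gained 0 cells and the progressed stroma 81. The log2 ratio of mitotic sums from regressed to progressed stroma was -0.64 (-0.79 to -0.48) without them and 1.60 (1.47 to 1.74) with them. From untreated to regressed it was 1.02 (0.85 to 1.19) without and -0.0012 (-0.15 to 0.15) with them. In tumor cells the same step raised the regressed against untreated ratio from 0.47 (0.02 to 0.95) to 3.18 (2.79 to 3.61).

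Among immune cells a small number of cells held most of the mitotic message. The immune cells of each tumor came from different clusters, with 391, 216 and 4 neutrophils, 312, 143 and 339 macrophages, 225, 197 and 53 cells of Monocytes1, 69, 57 and 161 of Monocytes2, 16, 106 and 85 mast cells and 25, 180 and 17 cells of NK_T. The part of this makeup in the differences between tumors was not tested. Mitotic sums were 255 CPM (241 to 270), 365 CPM (343 to 388) and 457 CPM (433 to 482), and S-phase sums 126, 209 and 260 CPM, listed likewise. Cells with 10 or more mitotic UMIs, 9 of 1053, 9 of 957 and 21 of 683, held 58.8%, 50.8% and 71.3% of these mitotic UMIs. Without them the mitotic sums were 108, 186 and 142 CPM, and the progressed tumor was no longer highest. That removal goes by the same UMIs that are compared, and its limit is harder to reach in shallow cells. Median depth of the immune cells was 3651, 2173 and 3736 UMIs, so the order without the removed cells is a description. Monocytes2 had 974, 287 and 886 CPM of mitotic message. Its 6, 2 and 16 cells with 10 or more mitotic UMIs held 89.7%, 50.4% and 85.5% of it, and without them it had 122, 154 and 155 CPM. NK_T had 1025, 728 and 1736 CPM, of which 1, 5 and 2 such cells held 87.1%, 69.1% and 87.6%, and 147, 243 and 335 CPM without them. NK_T_Cytolytic of the regressed tumor had 1150 CPM from 58 cells, 2 of which held 89.7%. NK_T of the progressed tumor also had the highest S-phase sum outside Dividing, at 1305 CPM (1088 to 1552) against 1319 CPM in progressed Dividing cells, with Mcm6 and Rrm2 in the lead.

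In neutrophils, mast cells and red blood cells, single members made up much of the mitotic sum. Neutrophils had 71.7 CPM of mitotic message in the untreated and 282 CPM in the regressed tumor, and Cks2, a small subunit of Cdk complexes, held 40.4% and 65.5% of it, at 28.9 and 185 CPM. No neutrophil had 10 mitotic UMIs. In mast cells Kif23 held 58.1% of regressed and 35.3% of progressed mitotic UMIs, with a UMI in 35 of 106 and 26 of 85 cells, while Mki67 was not among the leading 4. The 16 untreated mast cells had 2085 CPM of mitotic message, and 1 cell held 87.3% of it. Red blood cells of the regressed tumor had 95.6 CPM, with 17 UMIs of Ube2c and 10 of Nusap1 in the lead.

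Of 24 mitotic genes with 20 UMIs, 9 were called higher in regressed than in untreated immune cells, as were 3 of 13 S-phase genes and Ccnd1, 13 members in all, and none was called lower. The background was high, at 24.5% of all features called higher and 3.55% lower, and the median feature was itself shifted by 0.51 on the log2 scale, beside 0.75 for the mitotic and 0.69 for the S-phase genes. With TMM scaling, which takes up such a shift, the log2 ratio of the mitotic sums went from 0.52 to -0.073, and 2 members were called higher and 3 lower. Kif20b (2.49, 1.45 to 3.66), Kif23 (2.04, 1.47 to 2.64), Cdc20 (1.48), Mki67 (1.40), Mcm6 (1.39) and Mcm7 (1.39) led. From regressed to progressed immune cells 7 members were called higher, where 3.57% of features were, and 2 lower, where 15.4% were. This comparison set 216 neutrophils and 180 NK_T cells of the regressed tumor against 4 and 17 of the progressed one, and 57 cells of Monocytes2 against 161. The higher members were Rrm2 (4.85 to 25.6 CPM, log2 ratio 2.40, 1.57 to 3.34), Ccna2, the cyclin of S phase and G2 (1.89, 1.16 to 2.67), Ccnb1 (1.60), Ccne1 (1.33), Birc5 (1.29), Aurkb (1.15) and Ube2c (1.07). Cdc20 (-1.56) and Kif20b (-1.32) were lower. At equal depth Cdc20 and Aurkb changed sign, and with TMM scaling 12 members were called higher.

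Counting cells instead of molecules needed equal depth. At 1000 UMIs per cell, with 92, 703 and 55 shallower cells left out, UMIs of 2 or more of the 42 genes were present in 171 of 4003 cells (4.27%, 3.67 to 4.94) of the untreated, 243 of 3023 (8.04%, 7.09 to 9.07) of the regressed and 349 of 4794 (7.28%, 6.56 to 8.05) of the progressed tumor. Unthinned shares were 28.2%, 30.3% and 35.8%. Neutrophils, which do not divide once mature, gave a reference of 1 in 383 (0.261%) in the untreated tumor, at a median of 3257 UMIs, and 8 in 142 (5.63%, 2.46 to 10.8) in the regressed tumor, at a median of 1252. Red blood cells of the regressed tumor had 0 in 57 (interval 0 to 6.27%). Tumor2 of the regressed tumor had 44 of 121 cells (36.4%, 27.8 to 45.6). The 42 genes include Ccnd1, which is abundant in tumor cells, and for 2 or more genes of a single list the share in Tumor2 was 5.79% (2.36 to 11.6) for mitotic and 12.4% (7.11 to 19.6) for S-phase genes. Tumor1 had 7.32%, 4.44% and 16.6%. Stroma had 1.96%, 4.27% (3.37 to 5.33) and 3.0% for untreated, regressed and progressed.

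**Figure D5:**
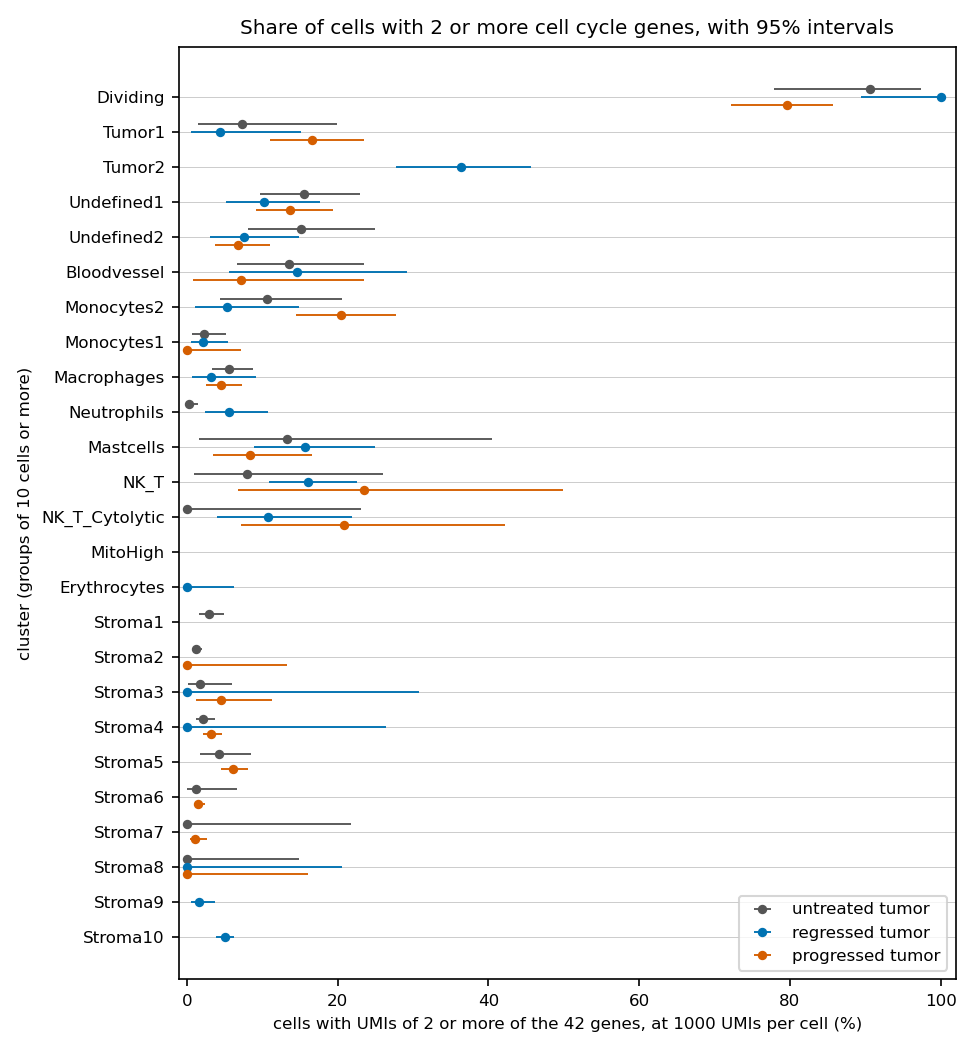
Percentage of cells with UMIs of 2 or more of the 42 genes, Ccnd1 included, after each cell was thinned to 1000 UMIs, by cluster (rows) and tumor (colors), with bars for 95% intervals and groups under 10 cells left out. Dividing lies between 79.6% and 100% and Tumor2 of the regressed tumor at 36.4%, while every stroma group lies at 6.11% or lower.

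In the untreated tumor the vessel cluster and Undefined2 also had most of their mitotic message in few cells. Bloodvessel had 616 CPM of mitotic message in the untreated tumor, 86.9% of it in 8 of 74 cells, and 149 and 76.4 CPM in the regressed and progressed tumors. Undefined2 had 943 CPM in the untreated tumor, 92.4% of it in 8 of 80 cells, against 205 and 128 CPM. Undefined1 differed less between tumors in mitotic message, at 219, 287 and 312 CPM, with 310, 363 and 580 CPM of S-phase message. Its mitotic message was also held by few cells. In 6 of 132, 4 of 121 and 9 of 194 cells there were 10 or more mitotic UMIs. These cells held 58.4%, 55.6% and 65.5% of it. The 8 untreated Undefined2 cells had a median of 29340 UMIs, against 9429 UMIs over the 80 cells of that cluster.

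Further lists held 16 inhibitors of the cycle and 8 G1 regulators. In tumor cells Cdkn1b, which encodes the Cdk inhibitor p27, had 22.7, 146 and 48.8 CPM and was called higher on regression (log2 ratio to the untreated tumor 2.68, from 6 and 87 UMIs) and lower again in the progressed tumor (-1.58, -2.15 to -1.03). In Tumor1 alone Cdkn1b stood at 27.2, 86.1 and 49.5 CPM, from 6, 13 and 41 UMIs. The log2 ratios there were 1.66 (0.17 to 3.34) and -0.80 (-1.73 to 0.23), the second with an interval on both sides of no change. Ccnd3, another D-type cyclin, ran opposite, at 621, 225 and 984 CPM (-1.47 and 2.13), and kept that order in Tumor1 at 694, 384 and 991 CPM. Cdkn2a, the source of p16 and p19Arf, was called lower in regressed tumor cells (451, 171 and 479 CPM), but in Tumor1 it was at 539, 536 and 478 CPM. In all, 2 of 13 inhibitors were called higher and 2 lower from untreated to regressed tumor cells, where 11.5% of features were called higher and 5.62% lower, and 0 of 7 G1 regulators higher and 2 lower, the other being Cdk6. From regressed to progressed tumor cells 2 of 14 inhibitors were higher and 5 lower, and 2 of 7 G1 regulators higher and none lower, where 4.42% of features were higher and 10.2% lower. Of the added replication genes, E2f1, an E2F factor that promotes S phase, had 15.2, 82.2 and 10.7 CPM in tumor cells (2.44 and -2.94), and in Tumor1 alone it rested on 4, 1 and 9 UMIs.

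In stroma Myc, a driver of growth, was called lower in the regressed tumor (31.5 to 14.0 CPM, log2 ratio -1.17, -1.51 to -0.84) and higher in the progressed tumor (76.1 CPM, 2.44, 2.13 to 2.77). Cdkn1b was called lower from regressed to progressed stroma (66.5 to 18.0 CPM, -1.88) along with Cdkn1c, Rb1 and Gas1, 5 of 16 inhibitors in all, and none was called higher, where 15.4% of features were called lower and 4.29% higher. Of 26 further S-phase genes with 20 UMIs, 3 were called higher in regressed than in untreated stroma, where 13.2% of features were. They were Slbp, which binds histone messages, and Pola1 and Prim1, of DNA polymerase alpha (2.38, 1.70 and 1.47). The median log2 ratio of these 26 was 0.15, against 0.14 over all features. Among immune cells 7 of 24 were called higher, these 3 included (2.76, 2.11 and 1.41), where 24.5% of features were. In immune cells Ccnd2, a further D-type cyclin, had 90.2 CPM in the untreated and 363 CPM in the regressed tumor (2.01, 1.84 to 2.18). The 5 NK and T markers summed to 276 and 1549 CPM there, and their part in the Ccnd2 difference was not tested. In the same comparison 7 of 16 inhibitors were called higher, where 24.5% of features were and the median feature was shifted by 0.51. Slbp was called lower from regressed to progressed stroma (-2.45) and immune cells (-3.41). It was 1 of 4 called lower among 27 such genes in stroma and 1 of 2 among 27 in immune cells. The share of features called lower was 15.4% in both. More cycling cells and more message per cell cannot be told apart from these sums.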

How the data were processed

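Single cells of 3 tumors were profiled, and the authors deposited a table of UMI counts per tumor (raw counts, not normalized) and a table of cluster names for each cell. Per the methods, reads had been aligned with GSNAP to GRCm38 and cells clustered with Seurat 2.2.0; the lowest cell held 326 UMIs. The annotation release is not given in the sources used here. Of 36530 features, 31049 matched a RefSeq symbol. The 12670 cell IDs were running names without barcodes, so shared barcodes could not be counted, and no doublet caller was run. UMIs were summed per cluster, compartment and tumor. Intervals were exact Poisson, Clopper-Pearson or conditional binomial, at 95%, and cover counting error only. Thinning drew 1000 UMIs per cell with a fixed seed. TMM factors came from edgeR 4.0.16, other values from numpy 2.4.6, scipy 1.17.1 and pandas 2.3.3. Interval and call functions were tested on simulated data. Named genes were, per comparison, the 6 called members with the largest log2 ratio, the 6 with most UMIs per list in Dividing cells, and up to 4 of each other list. Members and lists were chosen with earlier results of these data known. Alternatives were TMM scaling, thinning, nearest-group addition of Dividing cells, and leaving out deep cells or the leading gene. Part of the mouse genotype is not reported here.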

Additional observations from a re-analysis of the deposited data

How the results depend on the processing

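Values are log2 ratios of summed CPM, regressed against untreated and then progressed against regressed. Reversed means that the sign of the value changed, and its interval may still hold 0. Leaving out cells with 10 or more mitotic UMIs and using Tumor1 alone were chosen after seeing the data. No paired analysis was possible because each condition had 1 tumor. With TMM scaling, mitotic sums in stroma went from 1.02 to 0.78 and from -0.64 to -0.33. In immune cells they went from 0.52 to -0.073, a change of sign near 0, and from 0.33 to 0.64. S-phase sums went in stroma to 0.28 and, with a change of sign near 0, to 0.013, and in immune cells to 0.14 and 0.63. Thinned to 1000 UMIs, mitotic sums were -1.58 in progressed against regressed tumor cells, -0.86 in stroma, and 0.77 and 0.20 in immune cells. Thinned S-phase sums were 0.68 and -0.47 in stroma and 1.35 and, reversed, -0.12 in immune cells. Adding Dividing cells to their nearest group gave mitotic sums of 3.18 in regressed against untreated tumor cells, -0.0012 in regressed against untreated stroma, near 0 with an interval on both sides (-0.15 to 0.15), 1.60 in progressed against regressed stroma, reversed, and 0.84 and 0.17 in immune cells, and an S-phase sum of 0.27 in progressed against regressed stroma, reversed. Without the 5% of cells with most UMIs, mitotic sums in immune cells were 0.25 and 0.76, and the S-phase sum in progressed against regressed tumor cells -0.57. Without Cenpa, mitotic sums were 0.68 in regressed against untreated immune cells and -0.81 in progressed against regressed stroma. Without cells with 10 or more mitotic UMIs they were 1.23 and -1.70 in tumor cells, -0.97 in progressed against regressed stroma, and 0.78 and, reversed, -0.39 in immune cells. This removal goes by the UMIs compared and depends on depth, and it took 0 regressed tumor cells and 0 regressed stroma cells. Tumor1 alone reversed all 4 tumor cell ratios, with mitotic sums at -1.59 and 1.14 and S-phase sums at -0.82 and 1.44.

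In the untreated, regressed and progressed tumor, the share of cells with 2 or more of the genes was 28.2%, 30.3% and 35.8% with no thinning, 1.65%, 2.22% and 2.92% for mitotic genes alone, and 1.87%, 3.08% and 3.69% for 3 or more genes. The Dividing share of the regressed tumor went from 2.01% to 1.09% among cells with 1000 UMIs or more. The ratio of mitotic to S-phase UMIs in Dividing cells was 2.80, 6.43 and 3.48 when thinned. From the mean over cells it was 1.98, 5.40 and 1.92. The regressed tumor was highest each time over the whole cluster, whose mixture of cells differed between tumors. Among its tumor-like cells alone, the regressed tumor had 6.90 and the progressed tumor 9.66. Thinning reversed single genes with few UMIs, namely Plk1 (0.61) and Kif20b (0.028) in progressed against regressed stroma, Cdc20 (0.83) and Aurkb (-0.76) in progressed against regressed immune cells, Kif23 (-0.94) and Cdt1 (1.38) in regressed against untreated Dividing cells, and Kif23 (0.015) in progressed against regressed Dividing cells. Cenpf in regressed against untreated immune cells was at -0.43 without the deepest cells. Over the single genes called, 231 values stayed within the first interval, 65 moved and 8 reversed. The causes were not tested.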
